A study of Homo sapiens with 6 samples.

Results

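The genes described here are AHSG, FETUB, HRG and KNG1, which encode fetuin-A, fetuin-B, histidine-rich glycoprotein and kininogen. They were chosen by name, as the rows of the count table that carry these 4 symbols, out of 16720 rows with a name, and they were proposed because transcripts of the group were known to differ in this comparison. Their own differences between the groups are therefore given as a description, and where a test call is printed for them, nothing is read from it. All 4 were in the table, and 2 of them, AHSG and KNG1, held enough reads to pass the filter on low counts, as did 12839 genes in all.

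RNA was sequenced from Hep3B, an established cell line that came from a human liver cancer, to ask which transcripts change when the transcription factor RFX6 is lost. The sgControl group (3 libraries, genotype WT) carried a control guide, and the sgRFX6 group (3 libraries, genotype RFX6 knockout) carried an RFX6 guide that the column names call sg3. Per the study's methods, guides were delivered in the lentiCRISPRv2 vector, cells of the line were selected with puromycin, and clones grown from single cells were picked. How many clones stand behind each group, and whether the replicates were separate cultures, is not given in the sources used here, so p-values measure the spread between these libraries, and the effect of the guide and that of a clone cannot be told apart.

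All 4 proteins are made by hepatocytes, secreted into plasma and built around cystatin-like domains, the fold of the cysteine protease inhibitors. Fetuin-A binds calcium phosphate and keeps it from precipitating in blood and soft tissue, and it also binds the insulin receptor. Fetuin-B inhibits the astacin-type metalloproteases ovastacin and meprin. Histidine-rich glycoprotein is an adaptor that binds heparin, plasminogen and thrombospondin, and kininogen is the precursor from which plasma and tissue kallikreins release the vasoactive kinins.

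The genes lie side by side on the plus strand of chromosome 3 (GENCODE release 29, GRCh38). AHSG (ENSG00000145192.12) spans chr3:186612923-186621318 with 7 exons in its longest transcript. FETUB (ENSG00000090512.11) spans chr3:186635969-186653141 with 6 exons. HRG (ENSG00000113905.4) spans chr3:186660216-186678240 with 5 exons. KNG1 (ENSG00000113889.13) spans chr3:186717276-186744410 with 10 exons. The 4 genes take up 131488 bp, with gaps of 14.7 kb between AHSG and FETUB, 7.1 kb between FETUB and HRG and 39.0 kb between HRG and KNG1. The last gap holds 2 unprocessed pseudogenes that were not in the table.

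The sequence before the RefSeq start of each gene is shown as a description. Whether it bears on the difference in detection between these neighbours was not tested. The window searched was the 250 bases before the RefSeq start (GRCh38.p14, plus strand), and for FETUB the first of 2 RefSeq starts was used. Of these bases, GENCODE places 137 in an exon of AHSG, 83 of KNG1, 62 of HRG and 0 of FETUB. The whole HRG window lies inside the GENCODE gene, so it is not sequence upstream of that gene. Each sequence is printed 5' to 3' from the start of its window to at most 30 bases past the first base that GENCODE places in an exon of the gene. Capitals mark TGTTTNC, a short form of the motif bound by the FOXA factors of liver, and this motif was picked for display after its matches were seen.

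AHSG chr3:186612810-186612952: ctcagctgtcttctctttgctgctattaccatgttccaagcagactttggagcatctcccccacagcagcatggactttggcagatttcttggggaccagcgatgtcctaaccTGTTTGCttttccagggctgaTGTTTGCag
FETUB chr3:186635719-186635968: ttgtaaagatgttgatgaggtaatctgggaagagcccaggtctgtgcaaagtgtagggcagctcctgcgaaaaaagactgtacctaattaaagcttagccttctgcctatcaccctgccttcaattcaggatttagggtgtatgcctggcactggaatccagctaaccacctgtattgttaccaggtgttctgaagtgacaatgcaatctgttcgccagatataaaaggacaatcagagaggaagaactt
HRG chr3:186665764-186665981: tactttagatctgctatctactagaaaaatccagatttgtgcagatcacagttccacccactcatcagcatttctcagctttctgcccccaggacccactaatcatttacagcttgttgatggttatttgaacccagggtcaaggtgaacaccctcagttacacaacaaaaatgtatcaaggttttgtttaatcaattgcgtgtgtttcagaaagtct
KNG1 chr3:186717109-186717305: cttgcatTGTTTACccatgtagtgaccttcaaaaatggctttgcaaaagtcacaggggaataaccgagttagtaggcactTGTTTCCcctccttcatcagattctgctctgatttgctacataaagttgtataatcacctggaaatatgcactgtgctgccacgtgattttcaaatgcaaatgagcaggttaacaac

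The full windows of AHSG and KNG1 each held 2 matches to TGTTTNC, and those of FETUB and HRG held 0, when both strands were read. Of 35116 RefSeq windows of the same length, 15.5% held at least 1 match. In AHSG the matches began 137 and 116 bases before the RefSeq start, at and just past the first base of the GENCODE gene. In KNG1 they began 243 and 170 bases before it. The TATA box TATAAA split the genes the other way, with 1 match in FETUB, 1 in HRG and 0 in AHSG and KNG1 (10.7% of windows). The C/EBP pattern TTNNGNAA was found once in AHSG and in KNG1, 3 times in HRG and 0 times in FETUB (33.2%). AGGTCA, a nuclear receptor motif, was found once in KNG1 only (12.1%). GTTAAT, a part of the HNF1 motif (6.23%), and GTTGCC, a part of the X-box that RFX factors bind (10.2%), had no match in any of the 4 windows. Only these exact strings were searched, so other forms of the HNF1 motif or the X-box were not covered.

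The libraries held between 16730374 and 25070770 counts, so that 3 counts, the floor used here, correspond to 0.122 to 0.189 CPM (counts relative to the library total, scaled by edgeR's TMM factors). RFX6 itself had counts of 117, 144 and 170 in sgControl against 69, 59 and 77 in sgRFX6, a log2 fold change of -0.82 (SE 0.26) that did not pass edgeR's quasi-likelihood test (adjusted p = 0.142). It was called lower by limma-voom with sample quality weights (adjusted p = 0.00274) and by edgeR with a correction for GC content (adjusted p = 0.0488). A read count does not show whether a transcript can still be translated. The study states that it checked its RFX6 knockout by real-time PCR and by western blotting. The sgRFX6 replicate 3 stood apart: its differences in gene level from the other sgRFX6 libraries followed GC content, with Spearman's rho of -0.83 and -0.82 across genes, against -0.27 to 0.53 for the other pairs of one group. Replicates of a group differed by more than counting noise (chi-square per degree of freedom 16.9 to 122), and none was counted as a repeat of another.

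Checked against markers, the libraries carried hepatocyte transcripts, with HNF4A at 151 ± 8.3 CPM in sgControl and 126 ± 14.5 in sgRFX6 (mean ± SD, n = 3) and all 12 hepatocyte markers above the filter. Several of the other hepatocyte markers were low, among them TTR with 6 to 21 counts a library and APOA1 with 14 to 49. GPC3 had 7 to 17 counts in the sgControl libraries and 10 to 30 in sgRFX6. AFP had 39 to 51 counts in sgControl (mean 2.03 CPM) and 201 to 353 in sgRFX6 (mean 14.4 CPM). ALB had 298 to 793 counts in sgControl and 293 to 576 in sgRFX6. The biliary keratin KRT19 was high, at 736 ± 193 CPM in sgControl and 592 ± 173 in sgRFX6, whereas the other biliary markers were at 9.03 and 2.81 CPM (KRT7), 4.11 and 6.83 (SOX9) and 0.718 and 1.01 (EPCAM). Summed over the list, hepatocyte markers ranged from 334 to 398 CPM in sgControl and from 267 to 289 in sgRFX6, while the log2 fold change was positive in 8 of the 12, with a median of 0.29, and 1 of the 12 rose (AFP) and 1 fell (FGB) by edgeR's test. Of the other lists, 0 of 1 tested endothelial markers, 0 of 4 leukocyte markers and 0 of 4 cholangiocyte markers were called. Over all tested genes 3.74% were called in either direction. CDH5 was not in the table, and KDR and CD3E had at most 1 count in any library. Other members of these lists were present. PECAM1 had 12.1 ± 0.805 CPM in sgControl and 16.6 ± 3.11 in sgRFX6, and CD68 had 105 ± 44.9 and 86.4 ± 21.9. VWF had 1 to 13 counts a library. LYZ had 5, 18 and 9 counts in sgControl against 29, 36 and 40 in sgRFX6. The mesenchymal list summed to 24.9 to 33.1 CPM in sgControl and 21.3 to 56.4 in sgRFX6, and 2 of its 4 tested genes, the collagen chains COL1A1 and COL1A2, fell, the latter having passed the filter only through sgControl. The part that these marker shifts have in the results below was not tested.

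Of the 4 genes, AHSG and KNG1 were higher in the sgRFX6 libraries, by 3.21-fold and 6.63-fold, and FETUB and HRG stayed at the limit of detection in both groups. The plot of CPM by library shows that the sgRFX6 libraries lay above all sgControl libraries for AHSG and KNG1 and mixed with them for FETUB and HRG.

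**Figure D1:**
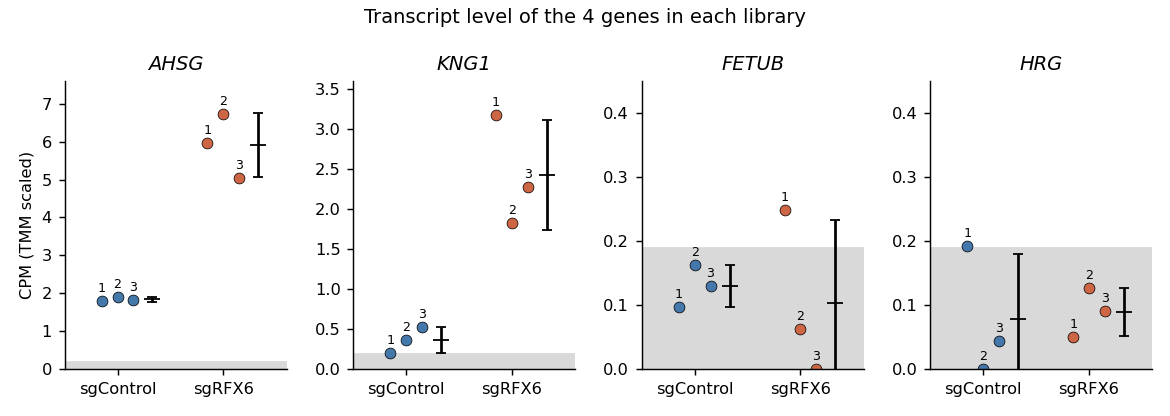
CPM (TMM scaled) of AHSG, KNG1, FETUB and HRG in each library, numbered by replicate, with the group mean and SD beside them (n = 3, cut off at 0, vertical scales differ between genes) and a grey band up to 0.189 CPM, the level of 3 counts in the shallowest library. AHSG lay at 1.78 to 1.90 CPM in sgControl and at 5.04 to 6.72 in sgRFX6, while FETUB and HRG lay near or inside the band in both groups.

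AHSG had the highest level of the 4 genes per length of exon. It had 37, 47 and 42 counts in the sgControl libraries 1, 2 and 3, and 120, 107 and 111 in the sgRFX6 libraries. Scaled for depth, these were 1.78, 1.90 and 1.81 CPM in sgControl and 5.96, 6.72 and 5.04 CPM in sgRFX6. The 3 sgControl libraries lay close together, the 3 sgRFX6 libraries were spread more widely, with replicate 3 the lowest, and the groups did not overlap, as was the case for 23.1% of all tested genes (1536 of 12839 with sgRFX6 the higher). The means were 1.83 ± 0.0628 and 5.91 ± 0.843 CPM (SD, n = 3), and the fitted log2 fold change was 1.68 (SE 0.27). In bulk RNA, a gene expressed in more cells and more RNA per cell cannot be told apart.

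KNG1 was at the edge of detection in sgControl and at a low level in sgRFX6. Its counts were 4, 9 and 12 in the sgControl libraries and 64, 29 and 50 in the sgRFX6 libraries, or 0.193, 0.365 and 0.518 CPM against 3.18, 1.82 and 2.27 CPM. The groups did not overlap, as was the case for 23.1% of all tested genes. The library with the fewest counts in sgRFX6, replicate 2, was still above the highest sgControl library. The means were 0.358 ± 0.163 and 2.42 ± 0.691 CPM (SD, n = 3), with a log2 fold change of 2.73 (SE 0.45). Only the sgRFX6 group carried KNG1 past the filter on low counts, so that its presence among the tested genes already required a difference.

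By edgeR's test AHSG and KNG1 were both among the 247 genes called higher in sgRFX6, which are 1.92% of the genes tested (3.74% in either direction). Since the genes were proposed from this contrast, nothing is read from that count. The call of AHSG was lost without sgControl replicate 1 or sgControl replicate 3, and both calls were lost without sgRFX6 replicate 1, where the log2 fold changes were 1.68 and 2.49. The median log2 fold change over all tested genes was 0.02.

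FETUB and HRG gave no measurable difference. FETUB had 2, 4 and 3 counts in the sgControl libraries and 5, 1 and 0 in sgRFX6, or 0.0964, 0.162 and 0.130 CPM against 0.248, 0.0628 and 0 CPM. The groups overlapped, and the summed counts of 9 and 6 gave a rate in sgRFX6 of 0.788 times that in sgControl (95% exact counting interval 0.231 to 2.48). HRG had 4, 0 and 1 counts in the sgControl libraries and 1, 2 and 2 in sgRFX6, or 0.193, 0 and 0.0432 CPM against 0.0497, 0.126 and 0.0908 CPM. Its groups overlapped as well, and the summed counts of 5 and 5 gave a rate ratio of 1.18 (0.272 to 5.13). These intervals cover counting error only. By counting error alone, the FETUB interval ends below the fold of AHSG, whereas the HRG interval includes it. Replicates differed by more than counting noise, so neither interval decides whether the gene rose. A difference in HRG was not detectable at this depth.

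Per kilobase of exon, the order of the 4 genes in sgControl was AHSG, KNG1, FETUB, HRG. AHSG stood at 0.779 CPM per kb, KNG1 at 0.0767, FETUB at 0.0639 and HRG at 0.0155. The libraries of KNG1 (0.0412 to 0.111) and FETUB (0.0476 to 0.0801) overlapped, so these neighbours in the order did not differ beyond their spread. In sgRFX6 the order was the same, with AHSG at 2.51, KNG1 at 0.519, FETUB at 0.0513 and HRG at 0.0175 CPM per kb, and there FETUB (0 to 0.123) and HRG (0.00981 to 0.0248) overlapped while KNG1 (0.390 to 0.680) stood clear of both. Per kilobase, the level of AHSG was 10.2 times that of KNG1 in sgControl and 4.84 times in sgRFX6. These ratios depend on the length used, the union of all annotated exons (2353 bp for AHSG, 4675 bp for KNG1). By CPM alone the means of AHSG and KNG1 were 1.83 and 0.358 in sgControl and 5.91 and 2.42 in sgRFX6. In sgControl, KNG1 had only 4, 9 and 12 counts.

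All 4 levels were low. Among 12204 tested genes with an annotated length, 14.7% lay below the per-kilobase level of AHSG in sgControl and 31.7% in sgRFX6. For KNG1 the shares were 1.20% and 10.8%. FETUB and HRG lay above at most 0.901% and 0.205% of these genes in either group.

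Reads of an overlapping gene could enter the counts of 3 members. The long noncoding gene AC068631.1, which was not in the table, runs on the minus strand through the locus and overlaps 15.4% of the exon bases of KNG1, 8.83% of those of HRG and 4.15% of those of FETUB, and none of AHSG. The sources used here do not state whether reads were counted by strand, so reads of KNG1 and of this antisense gene cannot be told apart there.

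No neighbouring gene of the cluster passed the test. Within 1 Mb on either side of the cluster, 16 other genes were in the table and 13 passed the filter. None of the 13 was called in either direction by edgeR's test, and 0 had an unadjusted p under 0.05, against 480 called and 2000 at that unadjusted p among all 12839. Their log2 fold changes ran from -0.57 (BCL6, a transcriptional repressor) to 0.22 (RPL39L, a ribosomal protein paralogue), with a median of -0.09. By limma-voom with sample quality weights 1 of the 13 was called, against 3998 of all 12839.

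Nearest to AHSG on its left, DNAJB11, a chaperone of the endoplasmic reticulum, had 75.5 ± 20.5 CPM in sgControl and 75.6 ± 13.9 in sgRFX6, a log2 fold change of 0.00 (SE 0.24). TBCCD1, a centrosome protein, followed with -0.01 (SE 0.22), and the lens crystallin gene CRYGS with -0.09 (SE 0.59). Nearest to KNG1 on its right, the translation factor EIF4A2 had 194 ± 6.86 and 175 ± 13.1 CPM, a log2 fold change of -0.15 (SE 0.15). The replication factor subunit RFC4 had 0.12 (SE 0.23), and ST6GAL1, which adds sialic acid to secreted glycoproteins, had -0.15 (SE 0.28). The plot of log2 fold change along the locus shows AHSG and KNG1 above a flat line of neighbours, with the untested FETUB and HRG between them.

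**Figure D2:**
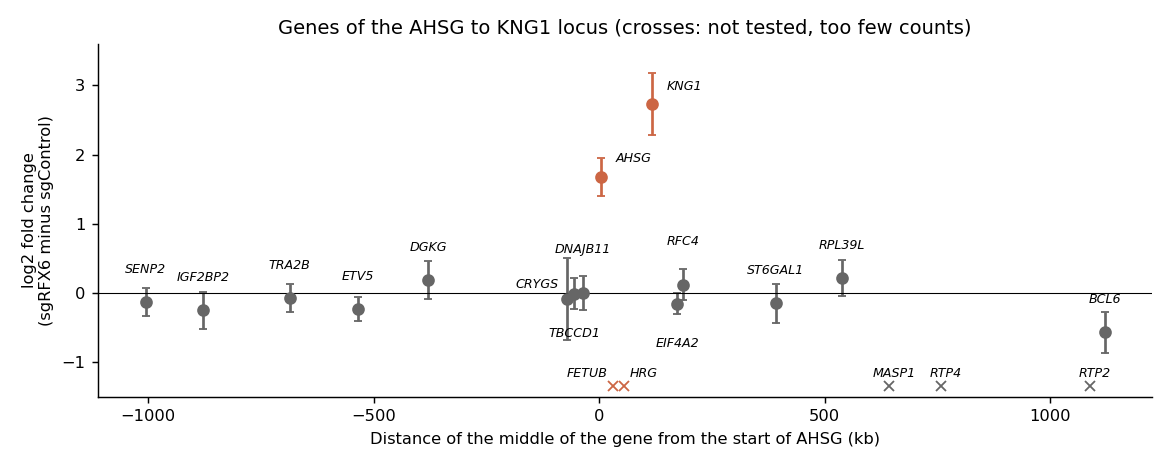
log2 fold change (sgRFX6 minus sgControl, points, with SE as bars) of the genes within 1 Mb of the cluster, against the distance of the middle of each gene from the start of AHSG in kb. AHSG at 1.68 and KNG1 at 2.73 (orange) stand above 13 tested neighbours between -0.57 and 0.22 (grey), and crosses on the lower edge mark genes with too few counts for a fold change.

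Of 19 other cystatin superfamily genes, 11 were in the table and 6 passed the filter, of which 0 rose and 1 fell. The log2 fold change was positive in 5 of the 6, with a median of 0.32 against 0.02 over all tested genes. At an unadjusted p under 0.05 there were 3 of the 6 (CST1, CST3 and RARRES1), against 15.6% of all tested genes. The share called over all tested genes was 3.74%. CST1, the secreted salivary cystatin SN, was the one that fell. It had 47, 122 and 112 counts in the sgControl libraries and 4, 0 and 0 in sgRFX6, with a log2 fold change of -5.76 (SE 0.82, adjusted p = 0.0068, edgeR). No sgRFX6 library of CST1 reached the lowest sgControl library, and 23.1% of all tested genes had groups that did not overlap. It passed the filter on low counts only through sgControl, where it was high. Without sgRFX6 replicate 1, the one sgRFX6 library with any count, the fitted value was -9.42, which is no bound since the group is then at 0. Its copy CST4, named after its values were seen, had 3, 2 and 0 counts against 0 in each sgRFX6 library, and near-identical salivary cystatins can share reads, so that the split between them is uncertain.

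The family members with the highest CPM were not called. CST3, cystatin C, the main extracellular inhibitor of cathepsins, had 526 ± 44.1 CPM in sgControl and 763 ± 206 in sgRFX6 (log2 fold change 0.54, SE 0.23, adjusted p = 0.291, edgeR). CSTB, the cytosolic stefin B, had 215 ± 58.9 and 231 ± 59.1 CPM (0.10, SE 0.26, adjusted p = 0.917, edgeR).

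Several plasma partners of kininogen were at or near 0 counts. Of 18 genes of the kinin and contact system all were in the table and 8 passed the filter. Of these, 0 rose or fell by edgeR's test, against 3.74% of all tested genes. At an unadjusted p under 0.05 there was 1 (PREP), against 15.6% of all tested genes. By limma-voom 4 were called, against 3998 of all 12839 tested genes. The median log2 fold change of the 8 was -0.03. The genes around kininogen itself were named after their values were seen. KLKB1, which encodes the plasma prekallikrein that cuts kininogen, had 0 counts in 5 libraries and 1 in the sixth, and F11, which circulates bound to kininogen, had at most 1 count. F12, the start of the contact cascade, had 1, 17 and 2 counts in the sgControl libraries and 4, 2 and 5 in sgRFX6. SERPING1, the inhibitor of these proteases, had at most 4 counts in any library.

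Part of the list on the receptor and enzyme side was covered and part was not. MME, CPB2, CPN1, XPNPEP2 and the carboxypeptidase M gene (CPM), which degrade or trim kinins, and the receptor BDKRB1 did not pass the filter, with 0 to 18 counts a library. BDKRB2, the constitutive bradykinin receptor, had 2.57 ± 1.28 CPM in sgControl and 1.89 ± 0.0653 in sgRFX6, a log2 fold change of -0.44 (SE 0.40), with overlapping groups. XPNPEP1, an aminopeptidase that cleaves bradykinin, had the highest CPM of the list, with 73.0 ± 6.58 and 71.6 ± 4.96 CPM (-0.03, SE 0.16). PREP, prolyl oligopeptidase, had 47.5 ± 3.17 and 35.5 ± 2.70 CPM (-0.42, SE 0.18, adjusted p = 0.295, edgeR).

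Of 12 proteases that the family is known to inhibit, all were in the table and 9 passed the filter, of which 1 rose and 0 fell. Their median log2 fold change was -0.11. Of the 9, 3 had an unadjusted p under 0.05 (CTSS, CTSH and CTSL, of which CTSL was lower), against 15.6% of all tested genes. The share called among all tested genes was 3.74%. The one that rose was CTSS, the lysosomal cysteine protease cathepsin S, with 10, 41 and 14 counts in the sgControl libraries and 116, 46 and 121 in sgRFX6. As CPM these were 0.482, 1.66 and 0.604 against 5.76, 2.89 and 5.50, so that the groups did not overlap, as for 23.1% of all tested genes. The log2 fold change was 2.35 (SE 0.52, adjusted p = 0.0421, edgeR). This call was lost with library sizes alone as scaling (adjusted p = 0.0534) and without sgControl replicate 1, sgControl replicate 3, sgRFX6 replicate 1 or sgRFX6 replicate 3 (adjusted p of 0.0705 to 0.169, edgeR). CTSB and CTSL, the listed proteases with the highest CPM, had log2 fold changes of -0.11 (SE 0.27) and -0.63 (SE 0.26) and were not called. The fetuin-B targets MEP1B and ASTL had at most 2 counts in any library, and MEP1A had 3, 7 and 3 counts against 15, 5 and 8, too few to pass the filter.

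The receptors and ligands that bind these proteins did not pass the test. Of 14 binding partners all were in the table and 11 passed the filter. Of these, 0 were called by edgeR in either direction, against 3.74% of all tested genes. An unadjusted p under 0.05 was found for 0, against 15.6% of all tested genes. By limma-voom 2 were called, against 3998 of all 12839 tested genes. The median log2 fold change of the 11 was -0.05. ANXA2, a cell surface annexin that binds fetuin-A, had 1427 ± 254 CPM in sgControl and 1337 ± 43.1 in sgRFX6. C1QBP, which binds kininogen at the cell surface, had 454 ± 95.8 and 439 ± 35.4 CPM. INSR, the insulin receptor, was named after its values were seen, with 49.0 ± 0.763 and 61.0 ± 4.94 CPM (log2 fold change 0.32, SE 0.16, adjusted p = 0.415, edgeR).

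Of 19 transcription factors that act in liver, all were in the table and 17 passed the filter, of which 1 rose and 0 fell. Their median log2 fold change was 0.10. Of the 17, 5 had an unadjusted p under 0.05, with HNF4G, NR1H4 and NFIX higher and FOXA1 and FOXA3 lower in sgRFX6. Over all tested genes, 15.6% had such a p and 3.74% were called. NR1H4, the bile acid receptor FXR, was the one that rose, from 4, 5 and 3 counts in sgControl to 22, 12 and 22 in sgRFX6 (log2 fold change 2.41, SE 0.44, adjusted p = 0.0203, edgeR). Like KNG1, it passed the filter on low counts only through sgRFX6, so that its place among the tested genes already required a difference. The lowest sgRFX6 library lay above the highest sgControl library, and 23.1% of all tested genes had groups that did not overlap. The call of NR1H4 was lost without sgControl replicate 1, sgControl replicate 3 or sgRFX6 replicate 1 (adjusted p of 0.0753 to 0.105, edgeR). NFIC and CEBPA, which had the highest CPM of the list, had log2 fold changes of -0.15 (SE 0.19) and 0.34 (SE 0.25). The FOXA genes were named after their values were seen. FOXA1 had 7.01 ± 0.740 and 3.30 ± 0.529 CPM (-1.08, SE 0.26, adjusted p = 0.0622, edgeR). FOXA2, the FOXA gene with the highest CPM, had 94.4 ± 2.04 and 86.7 ± 17.3 CPM (-0.12, SE 0.18, adjusted p = 0.845, edgeR). FOXA3 had 13.0 ± 1.67 and 7.17 ± 2.35 CPM (-0.86, SE 0.30, adjusted p = 0.182, edgeR). The plot of the related lists shows these genes scattered around 0, with CST1, CTSS and NR1H4 as the called genes among them.

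**Figure D3:**
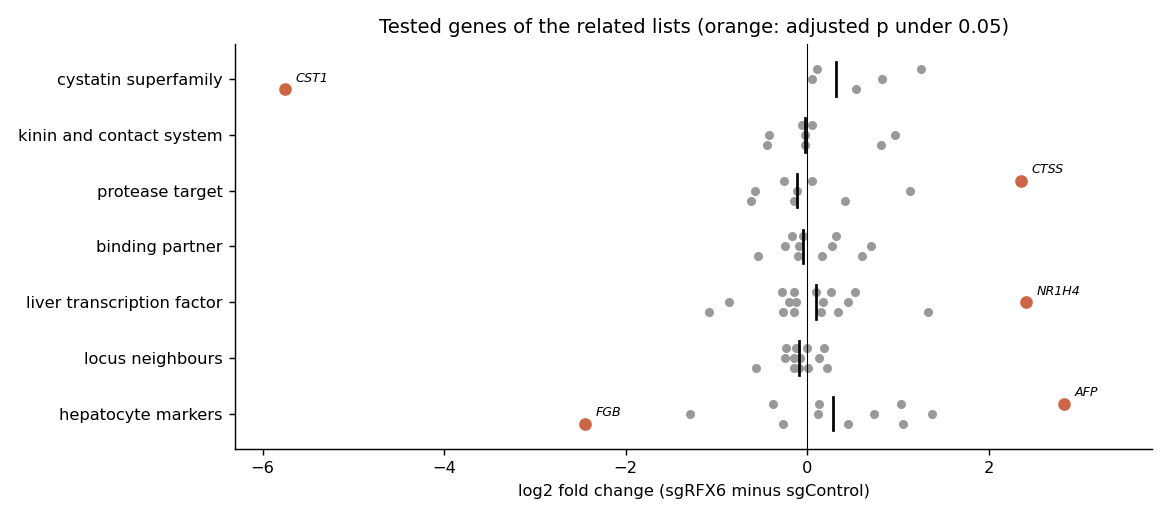
log2 fold change (sgRFX6 minus sgControl) of each tested gene in the lists of related genes, 1 row a list, with called genes (adjusted p under 0.05, edgeR) in orange and the median of each list as a black bar. Most genes lie close to 0, and CST1 at -5.76, CTSS at 2.35 and NR1H4 at 2.41 are the called genes of the cystatin, protease and transcription factor lists, beside AFP and FGB among hepatocyte markers.

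AHSG and KNG1 differed in profile over the 6 libraries. The distance between them, the root mean square difference of log2 CPM after each gene was centred on its own mean, was 0.61. The genes nearest to AHSG were ZIC2, a zinc finger transcription factor (0.12), DIRAS2, a small GTPase (0.13), and PPP1R3F, a regulatory subunit of a glycogen-associated phosphatase (0.13). ZIC2 had 2.58 ± 0.306 CPM in sgControl and 8.40 ± 0.707 in sgRFX6. Those nearest to KNG1 were PMEPA1, an inhibitor of TGF-beta signalling (0.23), the membrane protein gene TMC5 (0.25) and the adenylate kinase AK5 (0.33). PMEPA1 had 1.53 ± 0.285 and 8.78 ± 2.12 CPM. Being near to AHSG or KNG1 by this measure means having a similar difference between the groups, and the 6 libraries carry little else. The plot of centred profiles shows that AHSG was nearly level within sgControl, whereas KNG1 was lowest in sgControl replicate 1, where it had 4 counts.

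**Figure D4:**
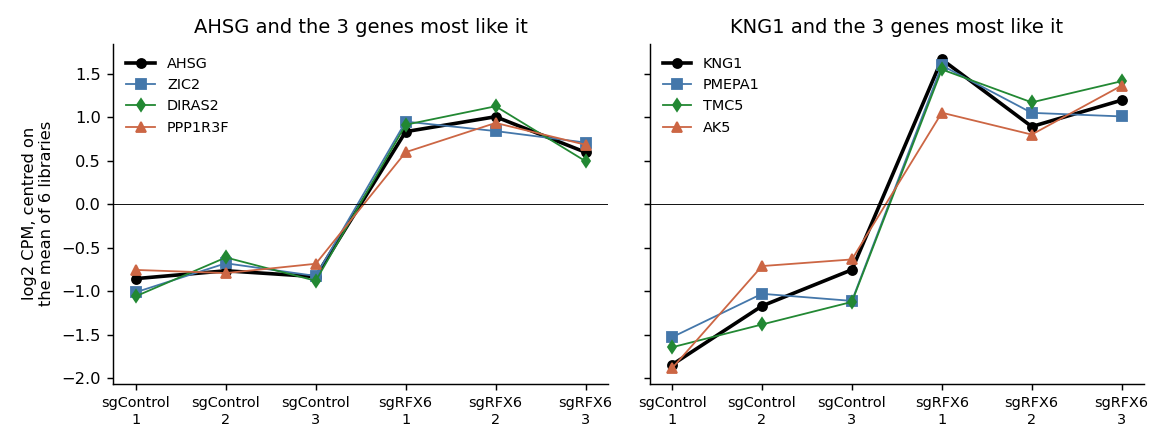
log2 CPM, centred on the mean of the 6 libraries, of AHSG (left) and KNG1 (right) with the 3 tested genes closest to each, where lines only join the points of one gene. All 8 profiles step up from the sgControl to the sgRFX6 libraries, and KNG1 has its lowest value, -1.84, in sgControl replicate 1.

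Both log2 fold changes were then followed through 14 other ways of treating the counts, shown in the plot of settings. That of AHSG stayed between 1.57 (without sgRFX6 replicate 2) and 1.79 (without sgRFX6 replicate 3). That of KNG1 stayed between 2.45 (without sgControl replicate 1) and 3.10 (without sgControl replicate 3) and the sgControl libraries held 4 to 12 counts of it. With a correction for GC content they were 1.69 and 2.70. Without sgRFX6 replicate 3, the library that stood apart by GC content, they were 1.79 and 2.78.

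**Figure D5:**
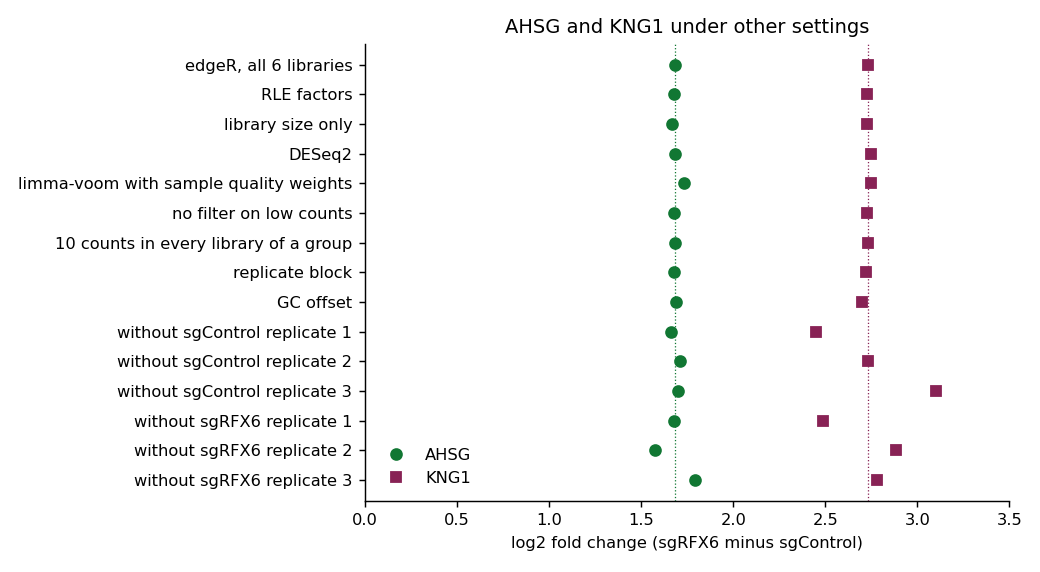
log2 fold change (sgRFX6 minus sgControl) of AHSG and KNG1 with edgeR on all 6 libraries (dotted lines mark these values) and under 14 other settings, 1 row each. AHSG keeps within 1.57 to 1.79 and KNG1 within 2.45 to 3.10, with the widest shifts of KNG1 when an sgControl library is left out.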

How the data were processed

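RNA of 6 Hep3B libraries (3 sgControl, 3 sgRFX6) was analysed from 1 table of raw counts per gene that the authors deposited, without normalisation. The submitters' processing notes name GRCh38 and hg38; aligner, counting program and strand setting are not given in the sources used here. Control columns are named cas and were taken as sgControl, the only control group. The row without a name (at most 9.17e-05% of a library) was left out. The 4 genes and the lists were chosen with earlier results of these data known.

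The fit used edgeR 4.0.16 (R 4.3.3) with filterByExpr (minimum count 10, total 15), TMM scaling, quasi-likelihood test of sgRFX6 against sgControl without covariates, Benjamini-Hochberg adjustment over 12839 genes, threshold 0.05. The common biological coefficient of variation was 0.269. Named genes are the 4 members, RFX6, each list's called genes and the 2 with the highest mean CPM, the nearest 3 tested neighbours on each side and the 3 closest profiles per tested member (log2 CPM, prior count 2); any other gene was named after its values were seen, among them the marker genes. GENCODE release 29 gave positions, exon lengths and GC content, matched by name for 15422 rows and by another symbol for 258, and upstream sequences from RefSeq. Intervals and the floor of 3 counts cover counting error only.

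Alternatives tried were DESeq2 1.42.0, limma-voom (limma 3.58.1) with sample quality weights, scaling by RLE factors or by library size alone, other filters, the replicate number as a block, a GC offset (lowess span 0.3, available for 95.1% of tested genes) and each library left out. In simulated data with 200 of 12856 genes changed 4-fold, edgeR recovered 96% and 2.04% of its calls were false. The simulation gave every gene the common coefficient of variation and held no GC trend, so these rates do not carry over to the real libraries.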

Additional observations from a re-analysis of the deposited data

How the results depend on the processing

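The log2 fold changes followed through the 14 alternatives were those of RFX6, CST1, CTSS, NR1H4, AHSG and KNG1, and none reversed. The fold changes of the other named genes were not followed. AHSG and KNG1 kept their direction under all 14 alternatives. Both were called except without sgControl replicate 1 or sgControl replicate 3 (1 called, KNG1) and without sgRFX6 replicate 1 (0 called), so that with 1 library left out the number called ran from 0 to 2. Both genes were proposed from this contrast, and KNG1 passed the filter only through sgRFX6. Nothing is therefore read from these calls or from the kept direction. RFX6 stayed lower, at -0.96 to -0.67, and passed the threshold with limma-voom and with the GC offset. The number of genes called, 480 with edgeR, was 895 with DESeq2, 3998 with limma-voom and 1393 with the GC offset, and ran from 212 (without sgControl replicate 3) to 718 (without sgRFX6 replicate 3). The split of higher against lower calls moved from 247 and 233 to 85 and 127 without sgControl replicate 3 and to 117 and 189 without sgControl replicate 1. The cause of these shifts was not tested.

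The related lists hold few genes, and their counts moved in steps of 1 or more. With limma-voom the number called was 4 for the cystatin superfamily, 4 for the kinin and contact system, 4 for protease targets, 2 for binding partners, 7 for transcription factors and 1 for the locus neighbours. DESeq2 called 3 transcription factors and 2 protease targets, and the GC offset called 5 and 2. Protease targets were 0 with library size only and 2 without the filter on low counts. With 1 library left out, cystatins ran from 1 to 2, protease targets from 0 to 2 and transcription factors from 0 to 2.

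No pairing by replicate number was evident. Deviations of same-numbered libraries from their group means correlated at -0.41, 0.17 and -0.09, and not every library correlated best with its own number. Whether libraries shared a culture or preparation batch was not tested. With the replicate number as a block, 648 genes were called (322 higher, 326 lower), 2 protease targets in place of 1, and the log2 fold changes of AHSG and KNG1 were 1.68 and 2.72.

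Depth limits FETUB and HRG most, where 1 count is 0.0405 to 0.0628 CPM.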
